A study of Rattus norvegicus with 12 samples.

Results

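The genes described here encode the proteins of the cytosolic ribosome. A gene was a member where the platform's annotation gave a probe set (the group of short array probes that measures 1 transcript) this gene alone and where its symbol was Rpl or Rps with a number, or Rpsa or Rplp0. Where a gene had several probe sets, the one brightest on average across the 12 arrays was used. The rule found 48 genes among 14217 named genes, measured by 55 probe sets. By role they were 28 proteins of the large ribosomal subunit, 13 of the small subunit, the P stalk protein Rplp0 and 6 paralogs, which are second copies that resemble a standard ribosomal protein. Differences between stages played no part in this rule, so the comparisons between stages could be tested. The family itself was chosen with earlier results of these data known. Rplp1 and Rplp2 had no probe set of their own and are not analysed here.

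The study followed liver injury caused by the carcinogen diethylnitrosamine (DEN) in male adult Sprague-Dawley rats. Each of 4 groups had 3 samples, hybridised to 12 Affymetrix rat expression arrays. DEN rats were given 70 mg/kg intraperitoneally each week for 10 weeks and were killed at week 5 in the hepatitis group, weeks 13 to 14 in the cirrhosis group and weeks 23 to 24 in the hepatocellular carcinoma (HCC) group. Control rats received distilled water. The sources used here give no time of sacrifice for them, so age and stage cannot be told apart. No genetic modification is given for any group. The series description calls the last group HCC tissue and the others liver, while the tissue label is liver for all 12. Whether the 12 arrays came from 12 animals is not stated, so p-values reflect the spread between these samples alone, which may be technical.

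A ribosome joins a small subunit, which reads the messenger RNA, to a large subunit, which forms the peptide bonds, and each protein of the particle is normally made in step with the others. Growing and dividing cells need many new ribosomes. Messenger RNAs of ribosomal proteins begin with a C followed by a run of pyrimidines, the 5′ terminal oligopyrimidine (TOP) motif, through which the growth-sensing kinase mTOR and the RNA-binding protein Larp1 control their translation. The liver, a tissue with heavy protein secretion, holds these messenger RNAs in abundance. Some of the proteins also act outside the ribosome: Rpl5 and Rpl11 bind the ubiquitin ligase Mdm2, which degrades the tumour suppressor p53, and the paralog Rps27l is a p53 target.

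The annotated transcription starts of 9 members that the results turn on are shown: 6 carry this motif, the feature that ties the family together in translation, and the last 3 have no such run at the start and stand for comparison. Each line gives the coding-strand sequence from RefSeq, build GRCr8, with 15 bases before the annotated start and 15 from it. Capitals mark a run that begins with C exactly at the annotated start and goes on with at least 4 further pyrimidines.
Rpl19: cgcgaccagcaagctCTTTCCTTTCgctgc
Rpl22: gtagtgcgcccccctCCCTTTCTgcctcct
Rpl37a: gcatgcccgttgcgtCTCTTCCTCTTCggg
Rpl35a: gcgggtcttgccttcCTCTTTCCgccatct
Rps15: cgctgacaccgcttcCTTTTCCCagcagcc
Rplp0: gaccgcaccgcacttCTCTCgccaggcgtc
Rpl13a: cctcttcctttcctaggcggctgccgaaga
Rps16: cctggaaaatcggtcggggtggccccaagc
Rps27l: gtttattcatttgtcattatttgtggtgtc

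The windows lie at chr10:83519049-83519078 (plus strand) for Rpl19, chr5:168117946-168117975 (plus) for Rpl22, chr9:81748076-81748105 (plus) for Rpl37a and chr11:81235007-81235036 (minus) for Rpl35a. They lie at chr7:10068101-10068130 (minus) for Rps15, chr12:46718376-46718405 (minus) for Rplp0 and chr1:104748899-104748928 (minus) for Rpl13a. Those of Rps16 and Rps27l lie at chr1:92770643-92770672 (plus) and chr8:76443643-76443672 (plus). Starts were in the table for 43 of the 48 members. A run at the annotated start was present in 12 of these 43 genes (27.9%), against 722 of all 27457 genes in the table (2.63%). A run that began within 10 bases of the start on either side was present in 29 members (67.4%), against 28.8% of all genes. Only the coding strand was searched. The last 3 genes listed had no run exactly at the annotated start, which says only that these letters are not at that position.

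In the control liver the members' level hardly varied between arrays. The deposited values are linear fluorescence intensities, and the level of a gene cannot be set against that of another because each probe set responds differently. The median intensity over the 48 members was 2678 to 2717 on the control arrays and 2619 to 2697 on the cirrhosis arrays. It was 2606 to 3162 on the hepatitis arrays and 3267 to 4590 on the HCC arrays. No HCC array overlapped an array of another group. The median standard deviation of a member within a group, on the log2 scale, was 0.04 in control and 0.04 in cirrhosis, 0.13 in hepatitis and 0.25 in HCC. The same median over all genes was 0.09 in control and 0.07 in cirrhosis, 0.10 in hepatitis and 0.21 in HCC.

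Of the members, 38 had a mean intensity over the 12 arrays of at least 1000, and 8 lay under 100. Rps29, Rps23 and Rps6, proteins of the small subunit, had the highest means of their probe sets, and Rpl28, Rpl3l and Rpl39l1 the lowest. Rps29 read 7103, 6886 and 6939 in control, 7607, 7207 and 6651 in hepatitis, 6756, 6727 and 6825 in cirrhosis, with 8728, 6048 and 7390 in HCC. Its HCC arrays lay on both sides of the controls. The values of Rpl28, a large-subunit protein, were 6.72 to 8.91 on all 12 arrays, where 33.9% to 35.8% of all values on an array lay under 16. Its probe set gives no usable measure of the gene here.

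**Figure D1:**
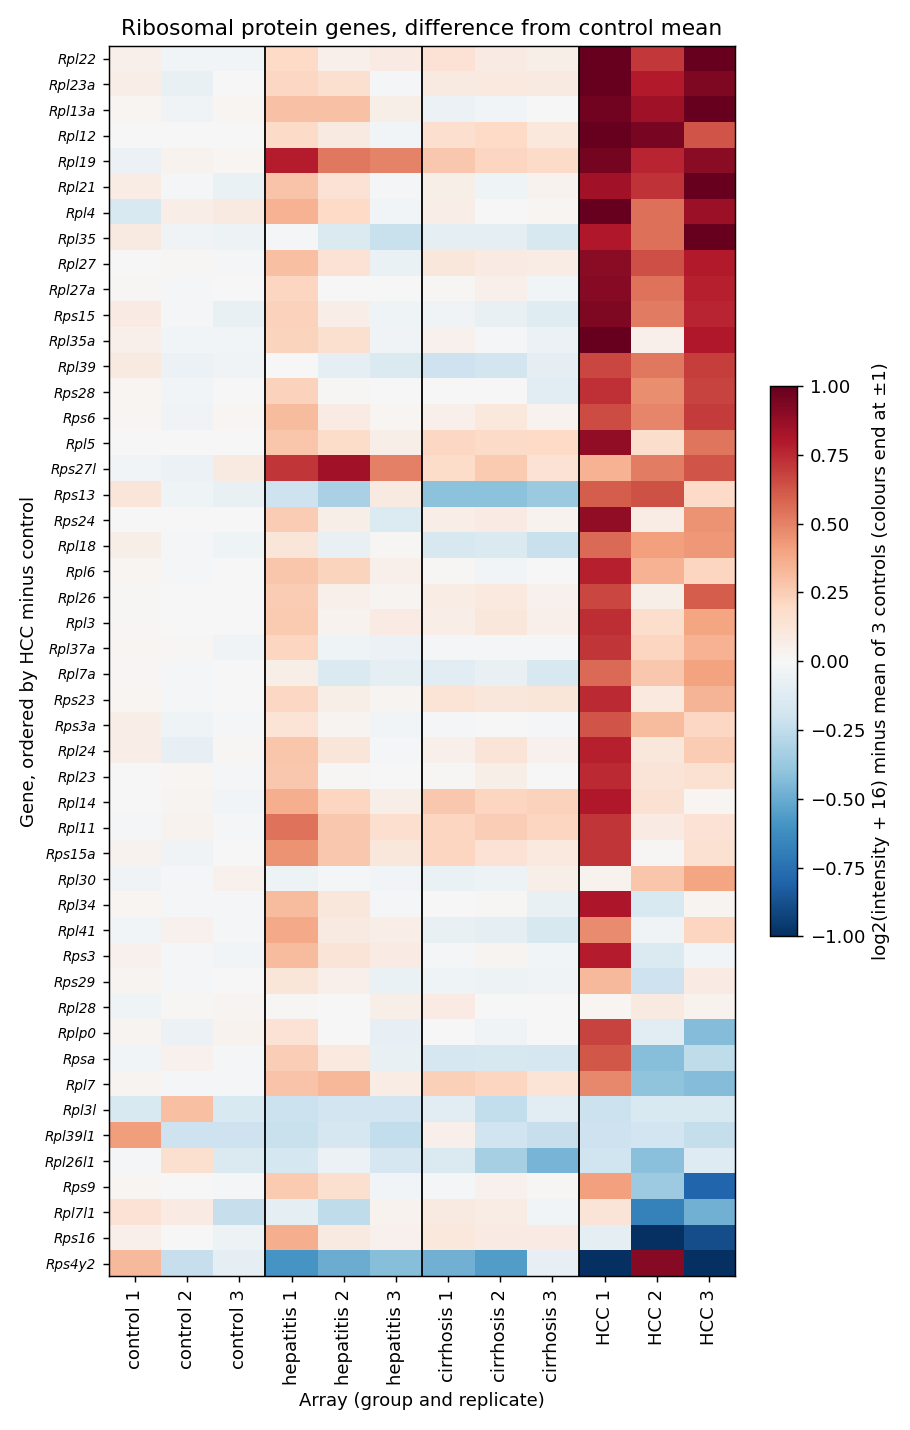
Each row is 1 of the 48 genes and each column 1 of the 12 arrays. Colour shows log2(intensity + 16) minus the mean of the 3 controls, with red higher and blue lower, and rows are ordered by the HCC difference. The HCC columns are mostly red, replicate 1 most of all, while the cirrhosis columns are pale apart from Rps13, Rpl26l1 and Rps4y2.

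The first comparison asked which members differed in hepatitis, at week 5 of DEN. Differences are given on the scale log2(intensity + 16), which understates those of dim genes, with the standard error from limma. A difference counted as called when its p, adjusted by Benjamini and Hochberg's method across the 14217 genes, was under 0.05. In hepatitis 2 of 48 members rose (4.17%, against 1.87% of all genes) and 0 fell (against 2.12% of all genes). They were Rps27l and Rpl19. The median difference over the members was 0.10, against -0.0025 over all genes.

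Rps27l, the paralog of Rps27, read 334, 326 and 363 in control and 569, 621 and 489 in hepatitis. All 3 hepatitis arrays lay above all controls. The difference was 0.68 ± 0.10 (SE, n = 3 and 3; limma adjusted p = 0.00572). In cirrhosis it read 389, 410 and 379, still above each control array, but the difference of 0.20 ± 0.10 was not called (limma adjusted p = 0.372). In HCC it read 436, 493 and 536 and was called higher than control by 0.50 ± 0.10 (limma adjusted p = 0.00328). The 2 highest values of the 12 arrays were both from hepatitis. The step down from hepatitis to cirrhosis, -0.49 ± 0.10, had a limma adjusted p of 0.0544 and was not called, although it was the smallest adjusted p of any member in that comparison.

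Rpl19, a large-subunit protein, read 3418, 3645 and 3614 in control and 6142, 5148 and 5017 in hepatitis. It then read 4282, 4129 and 4059 in cirrhosis and 6933, 6053 and 6667 in HCC. The arrays of all 3 DEN groups lay above all controls, with hepatitis and HCC higher than cirrhosis. The hepatitis difference was 0.60 ± 0.08 (limma adjusted p = 0.00493), and the cirrhosis difference of 0.22 ± 0.08 was not called (limma adjusted p = 0.211). Between cirrhosis and hepatitis the difference was -0.38 ± 0.08, not called (limma adjusted p = 0.0737).

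Without the test, 15 members had all 3 hepatitis arrays above all 3 controls (31.2%, against 15.1% of all genes) and 2 had all below (4.17%, against 15.6%). The hepatitis arrays differed among themselves: 38 members lay above every control on replicate 1, 29 on replicate 2 and 16 on replicate 3, with 6, 9 and 17 below. The matching counts over all genes on single arrays were not made. Without replicate 1 of hepatitis the median difference was 0.04. Rpl11, which binds Mdm2, read 4400, 3638 and 3396 against controls of 2978, 3086 and 2993. The arrays did not overlap, but the difference of 0.33 ± 0.15 was not called (limma adjusted p = 0.315). Rpl5, its partner, read 4059, 3804 and 3490 against 3343, 3361 and 3344, also without overlap and not called (0.17 ± 0.14, limma adjusted p = 0.642).

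In cirrhosis the members lay close to control. By limma 0 of 48 rose and 0 fell, against 1.54% and 1.79% of all genes. This fit uses 1 spread per gene over the 4 groups. The members' median standard deviation was 0.04 in control and in cirrhosis but 0.25 in HCC. With control and cirrhosis arrays alone in the fit, Rpl5, Rpl7, Rpl11, Rpl14 and Rpl19 were called higher, and Rps13 and Rpsa lower. At an unadjusted p under 0.05, 1 member was higher and 4 were lower (against 7.3% and 9.0% of all genes), and with array weights in limma 8 were called, 4 in each direction. The shares of all genes called with array weights, or with these groups alone, are not given here. The median difference was 0.01, against -0.0002 over all genes. In 17 members (35.4%, against 18.1% of all genes) all 3 cirrhosis arrays lay above all controls, and in 8 (16.7%, against 19.3%) all below. The smallest adjusted p was that of Rps13, a small-subunit protein, with 30.8, 25.7 and 24.9 in control and 16.5, 16.5 and 17.3 in cirrhosis. These dim values did not overlap, and the difference was -0.39 ± 0.13 (limma adjusted p = 0.164).

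Between cirrhosis and hepatitis limma called 0 of 48 members higher and 0 lower, against 0.394% and 0.563% of all genes. At an unadjusted p under 0.05, 0 were higher and 5 lower, against 5.66% and 5.73% of all genes, and with array weights 3 were called lower. The share of all genes called with array weights is not given here. All 3 cirrhosis arrays lay above all hepatitis arrays in 0 members (against 13.1% of all genes) and below them in 9 (18.8%, against 13.7%). The median difference was -0.07, and 0.0030 without replicate 1 of hepatitis.

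In HCC a majority of the ribosomal protein genes were higher than in control liver. By limma 27 of 48 members rose (56.2%, against 20.0% of all genes), and 1, Rps16, fell (2.08%, against 18.7%). The median difference was 0.42, against 0.01 over all genes. All 3 HCC arrays lay above all controls in 29 members (60.4%, against 24.1% of all genes) and below them in 2 (4.17%, against 22.5%). The rises were moderate and reached 0.98, just under a doubling. An F test over the 3 DEN groups called 22 members, which is 45.8% and near the 40.4% of all genes.

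**Figure D2:**
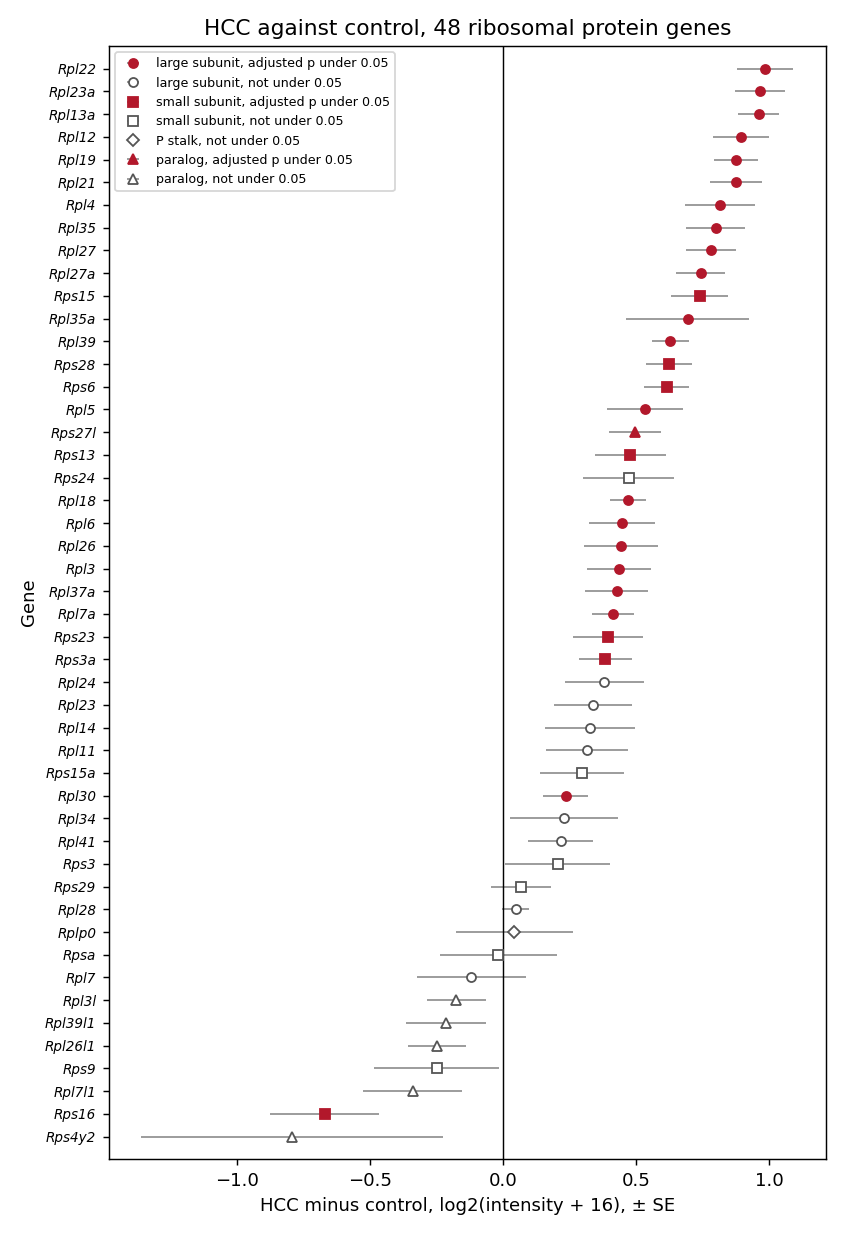
Points give HCC minus control on the log2(intensity + 16) scale for each of 48 genes, and bars the standard error from limma. Filled symbols passed an adjusted p of 0.05, and symbol shapes separate large-subunit, small-subunit, P stalk and paralog genes. Differences run from 0.98 for Rpl22 to -0.79 for Rps4y2, and Rps16 is the only filled symbol left of 0.

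Of the large-subunit genes 20 of 28 rose and 0 fell, with a median difference of 0.46 (26 and 0, median 0.80, after quantile normalization). The 6 largest rises were all of this subunit. Rpl22, an RNA-binding protein of the large subunit, read 2136, 2031 and 2029 in control and 4643, 3389 and 4381 in HCC. Rpl13a, which in its phosphorylated form also silences inflammatory messenger RNAs, read 1971, 1893 and 1966 in control and 3803, 3500 and 4102 in HCC. Every HCC array of both genes lay far above every control. The differences were 0.98 ± 0.10 for Rpl22 (limma adjusted p = 0.000139) and 0.96 ± 0.08 for Rpl13a (limma adjusted p = 4.04e-05).

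Rpl23a, a docking site near the exit of the peptide tunnel, read 2916, 2645 and 2788 in control and 6251, 4833 and 5338 in HCC. Rpl12, a protein at the base of the stalk, read 2747, 2740 and 2752 in control and 5896, 5330 and 4266 in HCC. Rpl21 read 1478, 1388 and 1341 in control and 2526, 2321 and 2932 in HCC. None of the 3 genes overlapped between groups, and replicate 1 was the highest HCC array in Rpl23a and Rpl12 but not in Rpl21. Their differences were 0.97 ± 0.09, 0.89 ± 0.11 and 0.87 ± 0.10 (limma adjusted p = 9.13e-05, 0.000246 and 0.000183). Rpl19 rose by 0.88 ± 0.08 (limma adjusted p = 8.12e-05).

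The other called large-subunit genes rose by 0.24 to 0.81, among them Rpl4, Rpl35, Rpl27 and Rpl27a. Rpl35a read 4780, 2096 and 3543 in HCC against 2099, 1989 and 1993 in control, and its call (0.69 ± 0.23, limma adjusted p = 0.0383) rests on HCC arrays that overlapped the controls. That call was lost under 11 of 24 alternatives (limma adjusted p = 0.0505 to 0.151), among them any fit without HCC replicate 1 (difference 0.42) or 3, without any 1 control or cirrhosis array, and without hepatitis replicate 1 or 2. Rpl5 read 6221, 3791 and 4848 in HCC, above every control, and rose by 0.53 ± 0.14 (limma adjusted p = 0.015; 0.0897 with HCC and control arrays alone in the fit). Rpl11 read 4970, 3204 and 3335, also above every control, and its difference of 0.31 ± 0.15 was not called (limma adjusted p = 0.133), though after quantile normalization it was 0.71 and called (limma adjusted p = 0.00425). The smallest called rise, 0.24 ± 0.08 for Rpl30 (limma adjusted p = 0.0499), came from a dim probe set with 10.5 to 12.0 in control and 11.8 to 19.7 in HCC, and the groups overlapped. That call was lost under 14 of 22 alternatives (limma adjusted p = 0.0594 to 0.283), with median centring and without any 1 control, hepatitis or cirrhosis array or HCC replicate 2 or 3 among them.

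Of the small-subunit genes 6 of 13 rose and 1 fell, with a median difference of 0.38 (9 and 0, median 0.65, after quantile normalization). Rps6, the protein phosphorylated by the S6 kinases when growth is stimulated, read 4514, 4346 and 4525 in control, 5549, 4714 and 4511 in hepatitis, 4633, 4803 and 4579 in cirrhosis, with 7017, 6273 and 7265 in HCC. The HCC arrays lay above all others. The HCC difference was 0.61 ± 0.08 (limma adjusted p = 0.000472). Rps15, needed for export of the small subunit from the nucleus, had the largest rise of this subunit, 0.74 ± 0.11 (limma adjusted p = 0.000628). Rps13 read 49.5, 51.0 and 33.1 in HCC and rose by 0.48 ± 0.13 (limma adjusted p = 0.0182), from a dim signal. Its call was lost with array weights (limma adjusted p = 0.0649), with HCC and control arrays alone (0.0656), and without HCC replicate 1 (0.0547) or control replicate 2 or 3 (0.0585 and 0.0589).

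Rps16, a small-subunit protein whose tail reaches the decoding site, was the member that fell. It read 3021, 2908 and 2810 in control, 3744, 3093 and 3006 in hepatitis, 3128, 3080 and 3083 in cirrhosis, with 2742, 1416 and 1565 in HCC. HCC replicates 2 and 3 were far below the other arrays, and replicate 1 was just below the lowest control. The difference was -0.67 ± 0.20 (limma adjusted p = 0.026). The call was lost after quantile normalization, where the difference was -0.28 (limma adjusted p = 0.266), and with HCC and control arrays alone in the fit (limma adjusted p = 0.116). It was also lost without any 1 control array (limma adjusted p = 0.0535 to 0.0729) and without HCC replicate 2 or 3 (0.0707 and 0.0855).

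The HCC arrays were not alike. Replicate 1 held 40 members above every control and 4 below, replicate 2 held 33 and 12, and replicate 3 held 36 and 10. The matching counts over all genes were not made, here or after quantile normalization. In 5 genes replicate 1 was above every control and replicates 2 and 3 were below: Rpl7, Rplp0, Rps3, Rps9 and Rpsa. Rplp0, the scaffold of the stalk that recruits elongation factors and a common reference gene in PCR, read 2875, 2702 and 2890 in control and 4515, 2603 and 2083 in HCC. Its difference was 0.04 ± 0.22 (limma adjusted p = 0.908), and its HCC mean stands for none of the 3 arrays. Rps9 read 2750, 2724 and 2685 in control and 3613, 2114 and 1561 in HCC. Its difference was -0.25 ± 0.23 (limma adjusted p = 0.445).

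This split depended on the scaling. After quantile normalization 43, 39 and 40 members lay above every control on HCC replicates 1, 2 and 3, and 3, 6 and 7 below. Rplp0 and Rps3 then lay above every control on all 3 arrays. In HCC against control, 36 members rose and 0 fell after that step, with a median difference of 0.71, while of all genes 2826 rose and 2683 fell, with a median of -0.0013. With each array centred on its median, 25 members rose and 2 fell, with a median of 0.33, while of all genes 2272 rose and 3302 fell, with a median of -0.08. On the deposited scale 2849 of all genes rose and 2663 fell. Without HCC replicate 1, on the deposited scale, 23 members rose and 5 fell (Rpl7, Rpl7l1, Rps16, Rps9 and Rpsa), with a median of 0.28. Without replicate 2, 31 rose and 1, Rps4y2, fell, and without replicate 3, 24 rose and 0 fell. The shares of all genes called without an HCC array are not given here.

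**Figure D3:**
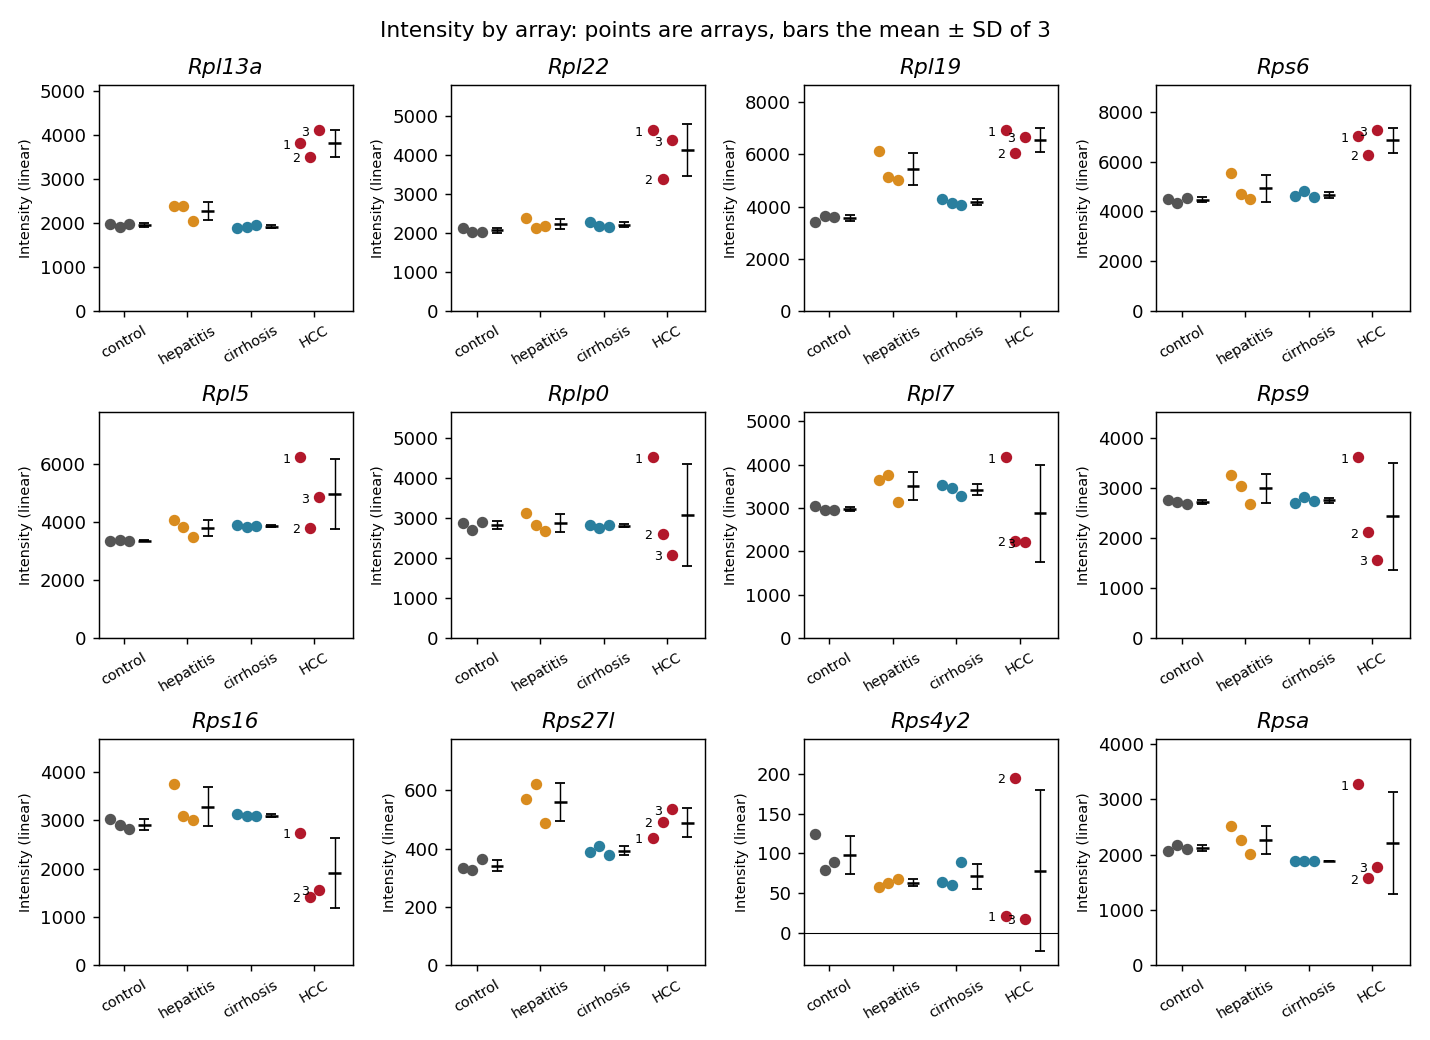
Each panel plots the intensity of 1 gene on the 12 arrays (linear axis), with the mean and standard deviation of each group of 3 beside the points and HCC points numbered by replicate. In Rpl13a, Rpl22, Rpl19 and Rps6 all 3 HCC arrays exceed the controls, while in Rplp0, Rpl7, Rps9 and Rpsa replicate 1 is above the controls and replicates 2 and 3 are below. Rps27l and Rpl19 are also raised in hepatitis.

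Values that describe RNA quality moved with the HCC group. The signal of the 3′ probe set of Gapdh exceeded that of its 5′ probe set by 0.87 to 1.02 (log2) in control, 0.38 to 0.69 in hepatitis, 0.42 to 0.56 in cirrhosis, with 1.35, 2.43 and 3.14 in HCC replicates 1, 2 and 3. The same measure for beta-actin was 2.41 to 2.69 in control and 3.82, 4.28 and 4.85 in HCC. Both were highest on HCC replicate 3 and, within HCC, lowest on replicate 1. Their part in the members' differences was not tested.

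Signals of cell type markers and of proliferation genes also differed. The 10 hepatocyte markers summed to intensities of 85859 to 86543 in control and 47171 to 80126 in HCC, where 4 fell and 0 rose, and none of the 10 was under 16 on all arrays of a group. After quantile normalization 2 hepatocyte markers fell and 1 rose, and with median centring 6 fell and 0 rose. The 12 proliferation genes summed to 933 to 1380 in control and 1687 to 4632 in HCC, where 10 rose and 0 fell. Of 10 macrophage markers 1 rose and 5 fell, of 6 endothelial markers 0 rose and 4 fell, and of 6 cholangiocyte markers 2 rose and 0 fell. The macrophage sums were 4759 to 9753 in control and 3573 to 7402 in HCC, the endothelial sums 2247 to 2586 and 489 to 1203, and the cholangiocyte sums 257 to 280 and 387 to 5963. Of the 6 cholangiocyte markers 3 were under 16 on all 3 control arrays, and 0 on all 3 HCC arrays. Of 10 stellate cell markers 5 rose and 1 fell, and of 5 B and plasma cell markers 2 rose and 0 fell. Of 5 erythroid markers 0 rose and 4 fell (also 0 and 4 in cirrhosis). Of 10 T and NK cell markers 4 rose and 0 fell, but only 5 differences were above 0. In 2 of these 10 genes all HCC arrays lay below all controls. The T and NK cell sums were low, 247 to 471 in control and 294 to 654 in HCC. Of all genes 20.0% rose and 18.7% fell in HCC. On HCC replicates 1, 2 and 3 the median deviation from the control mean was 3.64, 0.51 and 1.07 for the cholangiocyte markers and 2.24, 0.70 and 1.69 for the proliferation genes. On the hepatitis replicates it was 1.42, 0.08 and 0.17 and 0.88, 0.18 and -0.09. Replicate 1, which held the most members above every control, was the highest in both groups for both lists. In bulk tissue fewer cells of a type and less RNA per cell cannot be told apart, and the part of these shifts in the members' differences was not tested.

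HCC was also set against cirrhosis, the stage before it. Here 24 members rose (50.0%, against 19.4% of all genes) and 1 fell (2.08%, against 17.7%), and the median difference was 0.35, against 0.0023. HCC is shared by this comparison and the one with control, so they are not independent. Rpl13a rose by 0.99 ± 0.08 (limma adjusted p = 3.42e-05) and Rpl35, near the peptide tunnel exit, by 0.92 ± 0.11 (limma adjusted p = 0.000237). Rpl35 read 3470, 3476 and 3322 in cirrhosis and 6480, 5460 and 7673 in HCC, with no overlap. Rpl22 rose by 0.89, Rps13 by 0.87, Rpl23a by 0.87 and Rpl21 by 0.86. Rps16 fell, with a difference of -0.76 ± 0.20 (limma adjusted p = 0.0153), a call lost after quantile normalization (limma adjusted p = 0.156), with these groups alone in the fit (0.0813) and without HCC replicate 3 (0.0546). The median difference was 0.23 without HCC replicate 1, and 0.73 after quantile normalization. Of the members called in this comparison, 17 were called the same way under every alternative. The calls of Rpl3 and Rps27l were each lost under 14 of 24 alternatives, that of Rpl35a under 11 of 24 and that of Rpl30 under 11 of 22.

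Of the 6 paralogs Rps27l was the only one called in a comparison with control. Rpl7l1, which resembles Rpl7, read 299, 285 and 227 in control and 296, 162 and 188 in HCC, with overlap and no call (-0.34 ± 0.19, limma adjusted p = 0.181). Its parent Rpl7 read 3038, 2956 and 2961 in control and 4173, 2250 and 2206 in HCC (-0.12 ± 0.20, limma adjusted p = 0.692; 0.25 after quantile normalization). In both, replicates 2 and 3 were the lowest arrays.

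Rpl26l1, the paralog of Rpl26, read 28.2, 33.9 and 24.5 in control and 23.0, 17.5 and 24.8 in HCC, without a call (-0.25 ± 0.11, limma adjusted p = 0.0996; -0.33 and 0.0295 with median centring). Its parent Rpl26 read 3965, 3917 and 3909 in control and 6270, 4092 and 5976 in HCC and was called (0.44 ± 0.14, limma adjusted p = 0.0294). The Rpl26 call was lost under 7 of 24 alternatives (limma adjusted p = 0.0635 to 0.122), among them any fit without HCC replicate 1 or 3 or any 1 control array. Rpl39, the parent of Rpl39l1, read 70.2, 62.0 and 63.1 in control and 113, 101 and 115 in HCC and was called (0.63 ± 0.07, limma adjusted p = 0.000167). The HCC arrays of both parents lay above all controls.

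Rpl39l1 read 8.28 to 22.4 over the 12 arrays and Rpl3l, a form found in striated muscle, 6.31 to 16.7, and neither was called. Their values lie in the range where signal and background cannot be separated here. The 16.7 of Rpl3l was on control replicate 2, where the median deviation of 7 skeletal muscle markers was 1.61, against -0.83 and -0.78 on control replicates 1 and 3, and its part in that value was not tested. Rpl3, the parent of Rpl3l, rose by 0.44 ± 0.12 (limma adjusted p = 0.0172; 0.0887 with HCC and control arrays alone), with 5577, 3781 and 4396 in HCC against 3367, 3324 and 3329. Rps4y2, a paralog of Rps4x, read 125, 79.3 and 88.9 in control and 22.1, 195 and 17.7 in HCC. Its HCC arrays lay on both sides of the controls, and the difference of -0.79 ± 0.57 was not called (limma adjusted p = 0.307). The parents Rps27 and Rps4x are not analysed here.

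For 6 members several probe sets measured the same gene, and they did not always give the same answer. Rpsa, the laminin receptor and a small-subunit protein, was represented by a probe set with 2071, 2180 and 2099 in control and 3271, 1572 and 1776 in HCC. This probe set was not called (-0.02 ± 0.22, limma adjusted p = 0.963). A second probe set of Rpsa read 3988, 2807 and 3903 in HCC and was higher by 1.07, and another read 2864, 1992 and 3265 and was higher by 0.94. In a fit of all 31042 probe sets, where 15.7% rose and 14.1% fell in HCC, both were called (limma adjusted p = 0.000353 and 0.00126). These 2 probe sets are of types that can also detect similar transcripts. With the mean of all probe sets per gene, Rpsa rose by 0.66 (limma adjusted p = 0.00511).

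Rps24, which has several splice forms, was not called by the probe set used here (0.47 ± 0.17, limma adjusted p = 0.0518), but it was called under some alternatives, with 0.88 after quantile normalization (limma adjusted p = 0.0043) and 0.67 without HCC replicate 2 (0.00313). A second, dimmer probe set of Rps24 read 182, 227 and 120 in HCC and was higher by 1.64 (limma adjusted p = 0.000349). For Rpl7 the second probe set was lower by 0.77 (limma adjusted p = 0.0189), while the one used was not called. For Rpl14 the second was higher by 0.44 (limma adjusted p = 0.00111), from a dim signal of 17.2 to 17.8 in control and 26.4 to 34.5 in HCC. The first was not called, except after quantile normalization (0.71, limma adjusted p = 0.00311) and without HCC replicate 3 (0.48, limma adjusted p = 0.0498). Both Rpl3 probe sets rose, and neither of Rpl7l1 was called. No member had probe sets called in opposite directions.

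A further 36 probe sets were annotated to several genes, at least 1 of them a ribosomal protein gene, and no gene is named from them. In the fit of all probe sets 21 rose and 1 fell in HCC against control, with a median of 0.44, while 15.7% of all probe sets rose and 14.1% fell. Their arrays did not overlap, with HCC above, in 22, and with HCC below in 1. Over all genes, with 1 probe set each, these shares were 24.1% and 22.5%. In hepatitis and in cirrhosis 0 of 36 were called by limma in either direction, with medians of 0.07 and -0.05. Few genes were called there at all: 1.87% rose and 2.12% fell in hepatitis, and 1.54% and 1.79% in cirrhosis.

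The members with a pyrimidine run at the annotated start were set beside those without. Of the 12 with a run 8 rose in HCC, and of the 31 without a run 16 rose, with median differences of 0.53 and 0.41. The sequences printed for Rpl19, Rpl22, Rpl35a, Rps15 and Rpl37a belong to genes that rose, and that of Rplp0 to a gene that was not called. Rpl13a and Rps27l rose without a run exactly at the annotated start. A run within 10 bases of the start was present in 29 of the 43 members, Rpl13a among them. The members counted as without a run thus include some with a run close by. Whether the groups of genes differ was not tested.

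Genes of related function were described by lists. Other translation genes with a known TOP motif, 12 measured, held 6 that rose in HCC (50.0%, against 20.0% of all genes) and 0 that fell (against 18.7%), with a median difference of 0.40. After quantile normalization 9 rose and 0 fell, with a median of 0.78. The largest rises were those of Hnrnpa1, an RNA-binding protein of splicing (1.39 ± 0.13, limma adjusted p = 8.28e-05), Eef1d, an elongation factor subunit (0.91 ± 0.15, limma adjusted p = 0.00135), and Eif3h, an initiation factor subunit (0.84 ± 0.07, limma adjusted p = 3.89e-05). In cirrhosis Hnrnpa1 fell by 0.67 on the log2 scale (limma adjusted p = 0.0299). Rack1, a scaffold on the small subunit whose name lies outside the rule, rose by 0.71 ± 0.14 (limma adjusted p = 0.00302).

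Ribosome biogenesis genes, which make ribosomal RNA and assemble the subunits in the nucleolus, held 25 of 37 that rose in HCC (67.6%, against 20.0% of all genes) and 1 that fell (2.70%, against 18.7%), with a median of 0.62. Taf1d, a subunit of the RNA polymerase I initiation complex, rose from 256 ± 36.0 to 1800 ± 1291 (mean intensity ± SD, n = 3; 2.52 ± 0.37 on the log2 scale, limma adjusted p = 0.000695). Nop56 and Nop58, core proteins of the particles that methylate ribosomal RNA, rose by 2.35 ± 0.24 and 2.18 ± 0.24 (limma adjusted p = 0.000129 and 0.000182). In hepatitis 1 of the 37 rose (2.70%, against 1.87% of all genes). It was Rrn3, an activator of RNA polymerase I (0.53 ± 0.10, limma adjusted p = 0.0167). In cirrhosis limma called 0, while of all genes 1.54% rose and 1.79% fell.

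Of 23 initiation factors 9 rose (39.1%, against 20.0% of all genes) and 1 fell (4.35%, against 18.7%) in HCC, with a median of 0.30. After quantile normalization 14 rose and 1 fell, with a median of 0.56. Eif5b, which joins the subunits, rose by 1.20 ± 0.21 (limma adjusted p = 0.00179), and Eif3d by 0.79 ± 0.10 (limma adjusted p = 0.000357). In hepatitis 2 of the 23 fell (8.7%, against 2.12% of all genes). They were Eif4g1 and Eif4a2, both of the cap-binding complex, lower by 0.38 and 0.35 on the log2 scale (limma adjusted p = 0.0463 and 0.0148). Of 17 genes listed as regulators of ribosomal protein synthesis and of its p53 checkpoint, 6 rose (35.3%, against 20.0% of all genes) and 1 fell (5.88%, against 18.7%) in HCC. The list also held Mad1l1, a gene of the mitotic checkpoint and not a regulator of these proteins. It read 177 ± 9.60 in control and 102 ± 3.15 in HCC. Myc, a transcription factor that drives ribosome production, read 270 ± 63.8 in control and 764 ± 283 in HCC and rose by 1.41 ± 0.26 (limma adjusted p = 0.00224). Its mean was below control at the earlier stages, with 120 ± 18.2 in hepatitis and 222 ± 52.5 in cirrhosis.

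In hepatitis 3 of these 17 rose (17.6%, against 1.87% of all genes) and 1 fell (5.88%, against 2.12%). The 3 that rose were Cdkn1a, Ccng1 and Mdm2, all known p53 targets, and Rps27l also had its highest mean in this stage. Cdkn1a, the cell cycle inhibitor p21, read 177 ± 78.8 in control, 2092 ± 468 in hepatitis, 215 ± 24.9 in cirrhosis, with 330 ± 83.4 in HCC. Its hepatitis difference was 3.53 ± 0.31 (limma adjusted p = 0.000571). Ccng1 and Mdm2 rose by 2.77 ± 0.19 and 1.68 ± 0.18 in hepatitis (limma adjusted p = 0.000107 and 0.00143). From hepatitis to cirrhosis all 3 fell, by 3.17, 1.96 and 1.41 on the log2 scale (limma adjusted p = 0.00201, 0.00201 and 0.00712). In HCC Mdm2 and Cdkn1a were called higher than control, by 1.01 ± 0.18 and 0.91 ± 0.31 (limma adjusted p = 0.0018 and 0.0423). Ccng1 read 168 ± 21.5 in control and 188 ± 47.6 in HCC. A link between p53 and the level of Rps27l was not tested.

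The mitochondrial ribosome, a separate particle built by other genes, held mostly genes that fell in HCC. Of its 73 protein genes 41 fell (56.2%, against 18.7% of all genes) and 6 rose (8.22%, against 20.0%), with a median difference of -0.40. After quantile normalization 34 fell and 14 rose, with a median of -0.27, and with each array centred on its median 45 fell and 3 rose. Mrpl17 fell by 1.56, Mrpl15 by 1.55 and Mrpl46 by 1.27 on the log2 scale (limma adjusted p = 0.00162, 0.000116 and 0.000129). In cirrhosis 0 rose (against 1.54% of all genes) and 3 fell (4.11%, against 1.79%). In hepatitis 2 rose (2.74%, against 1.87%) and 1 fell (1.37%, against 2.12%), near the shares of all genes. On HCC replicates 1, 2 and 3 the median deviation from the control mean was -0.16, -0.42 and -0.49 for these genes and 0.72, 0.18 and 0.34 for the 48 cytosolic genes. The cytosolic and mitochondrial medians lay on opposite sides of 0 on each HCC array. The difference between the lists was not tested.

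**Figure D4:**
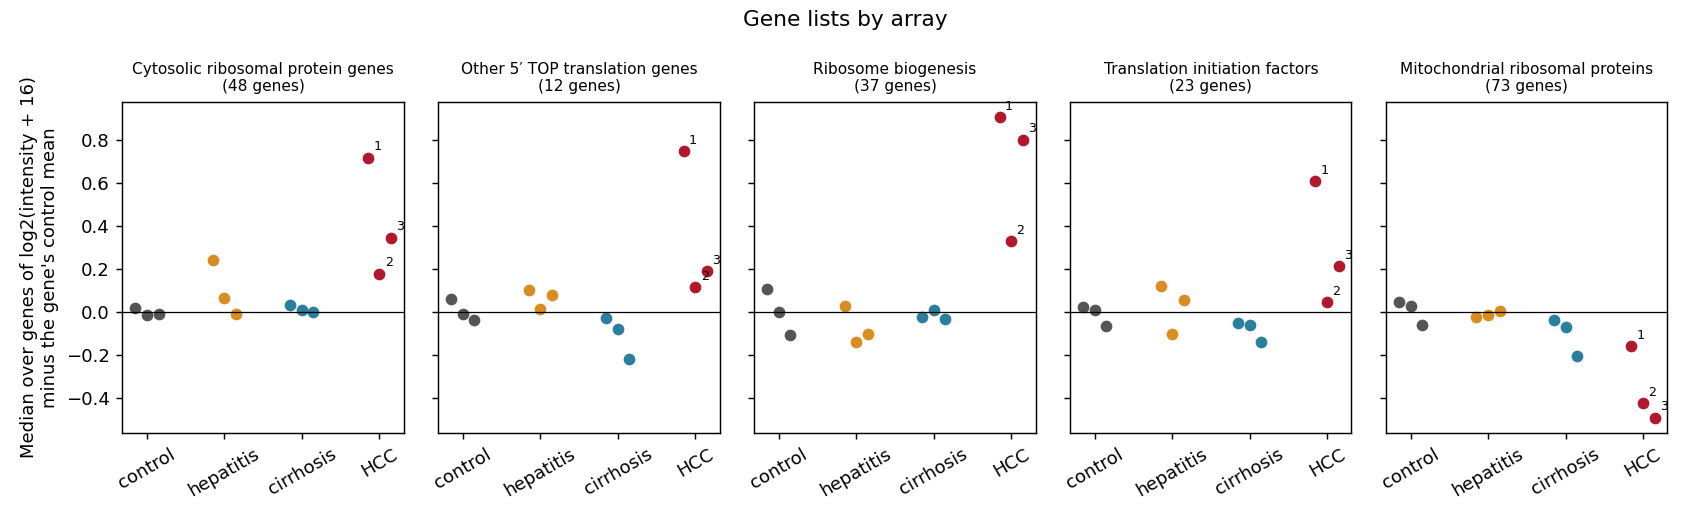
Points are arrays, and the vertical axis is the median over a list's genes of log2(intensity + 16) minus the gene's control mean; HCC points carry their replicate number. On every HCC array the cytosolic ribosomal protein, TOP, ribosome biogenesis and initiation factor medians lie above 0 and the mitochondrial ribosomal protein median below 0. Replicate 1 is the highest HCC array in all 5 lists.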

How the data were processed

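The 12 samples gave 1 single-colour array each. The authors deposited linear intensities, 1 per probe set and array. MAS5 and RMA stand in the submitters' processing notes, with no role given in the sources used here. Median intensity was 28.7 to 30.9 per array, which limits dim genes, and the number of arrays limits the precision. Gene names came from the annotation of the platform (20826 with 1 gene, 436 with several, 9780 with none, 57 controls left out). Near-identical copies and pseudogenes of ribosomal protein genes can share probes. Values were taken as log2(intensity + 16) and tested with limma 3.58.1 in R 4.3.3 on all 12 arrays, 2-sided, with 4 group means, 1 spread per gene (prior degrees of freedom 1.80) and 5 contrasts. The fit was tested on simulated data. Tables were made in Python 3.11.15 with pandas 2.3.3, and figures with matplotlib 3.10.9.

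The rule for members uses no difference between stages, but this family, the lists and the tests were chosen with earlier results of these data known. Named members are, per comparison, up to 6 called with the largest rise and 6 with the largest fall, or the smallest adjusted p where none was called. Added are Rplp0, Rpsa, Rps6, Rpl5, Rpl11, the paralogs with their parents, the 3 highest and 3 lowest means, and up to 3 called genes per companion list. Rpl30, Rps15, Rps9, Rps3, Rps24, Rpl14 and Rpl35a, and others named in passing, were chosen after their values were seen. Alternatives were other offsets, filters, scalings, probe-set rules, limma options, a replicate block and leaving out each array. The 36 probe sets of several genes were added after seeing the data.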

Additional observations from a re-analysis of the deposited data

How the results depend on the processing

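Of 22 single-gene results followed one by one, 17 kept the same call under every alternative. The exceptions were Rps16 in both HCC comparisons and Rpl5, Rpl11 and Rpsa against control. No result called in the main fit was reversed, a check that leaves out those not called there. Rpsa, not called in the main fit, was called in both directions among the alternatives. It was lower without HCC replicate 1 (-0.34, limma adjusted p = 0.0175) and higher with the mean of all probe sets (0.66, limma adjusted p = 0.00511). Of the 28 members called in HCC against control, 17 were called the same way under every alternative, 20 without each array in turn and 27 after quantile normalization. The other 11, which lost the call under at least 1 alternative, were Rpl3, Rpl5, Rpl6, Rpl26, Rpl30, Rpl35a, Rpl37a, Rps3a, Rps13, Rps16 and Rps23. With array weights the calls were 4 in hepatitis, 8 in cirrhosis and 3 in cirrhosis against hepatitis. With only the groups compared in the fit, 7 were called in cirrhosis and 17 in HCC against control. With the mean of all probe sets 1 was called in cirrhosis against hepatitis. The cause of these changes was not tested. Shares of all genes called under these alternatives are not given here. Quantile normalization moved the median difference to 0.71 against control and 0.73 against cirrhosis. Leaving out 1 array gave medians of 0.28 to 0.49 for HCC against control, 0.23 to 0.47 for HCC against cirrhosis and 0.04 to 0.15 for hepatitis, and 0 to 2 calls in cirrhosis against hepatitis. The 1 call there came without hepatitis replicate 3, or without HCC replicate 1 or 3, and the 2 without HCC replicate 2. With the replicate number as a replicate block, 30 members were called in HCC against control, in place of 28. Of 18 same-numbered pairs 3 had correlated deviations over 0.1 (range -0.25 to 0.36). The hepatitis and HCC pairs gave 0.365, 0.199 and 0.072, and the control and hepatitis pairs -0.204, -0.116 and -0.252. With 3 arrays per group this check cannot settle whether the numbers pair the samples. The 8 members with a mean under 100 are limited by signal close to background.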
